A study of Mus musculus with 24 samples.

Results

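The G1 cyclins Ccnd1, Ccnd2, Ccnd3 and Ccne1, their kinases Cdk4, Cdk6 and Cdk2, and the retinoblastoma gene Rb1 were followed in an RNA pulldown with a miR-29b mimic. They were chosen by gene symbol, and all 8 were present among 13534 genes of the whole-cell table and among 11568 genes of the fraction table. Cells were NIH3T3, an established line of mouse fibroblasts. They received a mimic of miR-29b or a scrambled control mimic, both containing the photocrosslinkable base analogue 3-cyanovinylcarbazole (CNVK), at 10 nM per the labels' default. Fresh medium followed at 24 h and harvest came after 8 h more. Each whole-cell group had 4 libraries: miR-29b pulldown, scrambled pulldown, miR-29b input and scrambled input. For the nuclear and cytoplasmic fractions there was 1 library for each of the same 4 kinds. The labels give no untransfected group, and every group carried a CNVK mimic. Nothing in them says that libraries of a group came from separate cultures, so the p-values below measure only the spread between these libraries, which may be technical.

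D-type cyclins bind Cdk4 or Cdk6 when mitogens are present, and the active kinases phosphorylate Rb. Phosphorylated Rb releases E2F transcription factors, which switch on cyclin E and the genes of DNA replication, and cyclin E with Cdk2 completes the inactivation of Rb. CDK inhibitors such as p21 and p27 hold these kinases back. A microRNA pairs with a messenger RNA mainly through its seed, and miR-29 has been reported to lower CDK6 and CCND2 in human tumour cells.

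The seed is the part of the mimic that is expected to choose its partners, so the mature members of the miR-29 family are shown, with bases 2 to 8 in capitals. They are the natural mouse RNAs in RefSeq (GRCm38.p6). The sequence of the CNVK mimic and the position of its modified base are not used here.
mmu-miR-29a-3p: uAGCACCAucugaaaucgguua
mmu-miR-29b-3p: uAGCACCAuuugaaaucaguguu
mmu-miR-29c-3p: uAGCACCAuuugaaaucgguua
All 3 share the seed AGCACCA. Over the length they have in common, miR-29a-3p differs from miR-29b-3p at 4 bases and miR-29c-3p at 3, all outside the seed. MiR-29b-3p is encoded at chr1:195037091-195037113 (plus strand) and at chr6:31063025-31063047 (minus strand). Its relatives lie at chr6:31062673-31062694 (minus strand, miR-29a-3p) and at chr1:195037600-195037621 (plus strand, miR-29c-3p).

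The whole-cell libraries held 7409157 to 55153996 listed counts, which were 48.9% to 87.3% of the authors' library totals, and detected 12579 to 13518 genes. Replicate 1 of the scrambled pulldown had both the fewest counts and the lowest share. By the file headers, replicates 1 to 3 were "lysed" and replicate 4 was "intact", which leaves each group 1 intact library. Replicate 3 of the miR-29b pulldown lay close to a mixture of replicates 1 and 2. Its median squared deviation from a mixture with 52.8% of replicate 1 was 1.6 times the counting variance, while for replicates 1, 2 and 4 of that group no mixture of other replicates came below 9.89, 12.3 and 91.8 times. In the other groups replicate 3 deviated from its best mixture by 2.03, 1.76 and 2.15 times (scrambled pulldown, miR-29b input, scrambled input). Results that rest on replicate 3 or 4 are therefore also given without it where that changes them. Where replicate 4 is left out of only some groups, the lysed and intact procedures are spread unequally over the groups. A change in such a set cannot be told apart from that difference. Fibroblast markers, which include collagens reported as miR-29 targets, were all detected, 8 of 8. Their summed level was 8877 to 15734 CPM (read counts scaled to library size) in the miR-29b pulldown, 3879 to 4668 in the scrambled pulldown, 4340 to 7414 in the miR-29b input and 4391 to 5400 in the scrambled input. Between the pulldowns Col1a1, Col1a2, Col3a1, Pdgfra and Pdgfrb were higher with miR-29b by 1.45 to 3.69 on the log2 scale and Thy1 was lower (-1.31), while S100a4 (-0.74) and Vim (-0.24) did not pass. Of epithelial markers 1 of 4 was listed (Krt8), with 0 to 0.855 CPM in the miR-29b pulldown, 1.65 to 3.27 CPM in the scrambled pulldown, 0 to 1.03 CPM in the miR-29b input and 0.274 to 0.775 CPM in the scrambled input. Of leukocyte markers 2 of 3 were listed, with at most 4.15 CPM in sum in any library, and of endothelial markers 0 of 3. Cdkn2a, which encodes the inhibitor p16 and the protein Arf and has been reported as deleted in NIH3T3, was listed at 9.14 to 31.9 CPM over the 16 libraries. The origin of those counts was not tested.

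The main question was for which of these transcripts the pulldown-over-input change was larger with the miR-29b mimic than with the scrambled mimic. The mimic-specific enrichment is the pulldown-over-input change with miR-29b minus the same change with the scrambled mimic, on the log2 scale. It does not require a level above the mimic's own input. Ccnd2 and Rb1 rose nearly 6-fold, Cdk2 about 4-fold and Ccne1 about 3-fold, and Cdk4 rose less. In the miR-29b pulldown Cdk4 was below its own input (log2 change -0.57). Ccnd1 and Ccnd3 did not pass the test, nor did Cdk6 over all 16 libraries, although it passed with the replicate number as a block. In all, 5 of the 8 genes passed upward and 0 downward (edgeR quasi-likelihood test, threshold 0.05 after Benjamini-Hochberg adjustment over 12915 genes), against 17% of all genes tested that were higher and 9.21% that were lower. The members' median log2 change was 1.63, and that of all genes tested was -0.10. All 8 passed the filter on low counts. The plot of CPM by library shows the values behind these results.

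**Figure D1:**
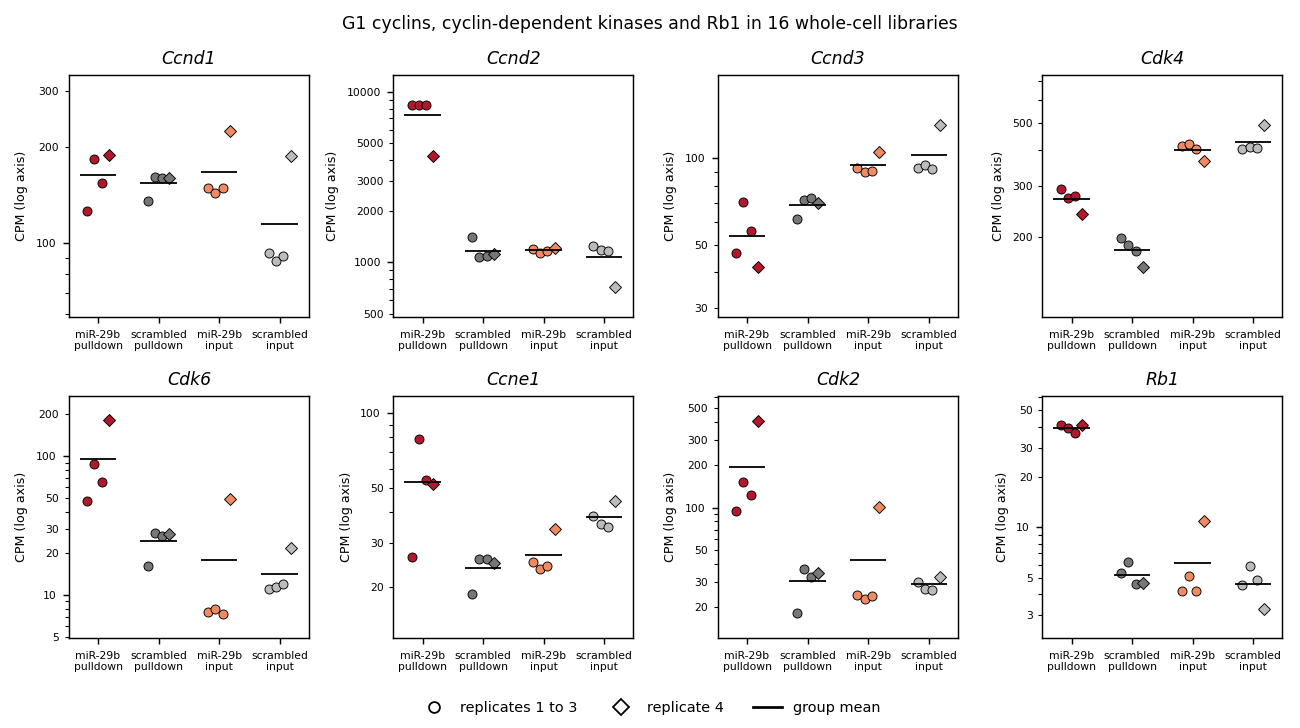
Each panel shows 1 gene in the 16 whole-cell libraries as CPM on a log axis, with circles for replicates 1 to 3, diamonds for replicate 4 and a line at the group mean. For Rb1 the miR-29b pulldown lies at 36.6 to 40.9 CPM and every other library at 11.0 CPM or less, whereas for Ccnd1 the 2 pulldowns overlap.

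Ccnd2 (chr6:127125162-127152188, GRCm38, ENSMUSG00000000184) encodes cyclin D2. It had 8349.6, 8443, 8359 and 4198 CPM in the miR-29b pulldown and 1402, 1078, 1089 and 1125 CPM in the scrambled pulldown. The inputs held 1194, 1141, 1172 and 1211 CPM with miR-29b and 1243, 1187, 1171 and 717 CPM with the scrambled mimic. All 4 miR-29b pulldown libraries stood above all other libraries, with replicate 4 the lowest of them. The mimic-specific change was 2.52 on the log2 scale (SE 0.33, n = 4 per group), a 5.72-fold enrichment with an adjusted p of 5.43e-05 (edgeR). Among replicates 1 to 3 it was 2.87, and in replicate 4, with 1 library per group, 1.14. No alternative tried ended this call.

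Ccnd1 (chr7:144929931-144939831, ENSMUSG00000070348), the gene of cyclin D1, behaved differently. Its libraries had 126, 184, 155 and 189 CPM in the miR-29b pulldown and 136, 162, 161 and 161 CPM in the scrambled pulldown. In the inputs it had 149, 144, 149 and 225 CPM with miR-29b and 93.0, 88.3, 91.4 and 187 CPM with the scrambled mimic. The pulldowns overlapped, and in both inputs replicate 4 was the highest. Its mimic-specific log2 change of -0.46 (SE 0.34, edgeR adjusted p = 0.358) did not pass. It did pass, as lower, among replicates 1 to 3 (-0.66, edgeR adjusted p = 0.0158; 19.1% of all genes were called lower there) and without replicate 4 of the scrambled input (-0.78, edgeR adjusted p = 0.0453). In replicate 4 alone the value was -0.03.

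Ccnd3 (chr17:47505051-47599689, ENSMUSG00000034165) encodes cyclin D3. It ranged over 46.7, 70.7, 55.7 and 41.9 CPM in the miR-29b pulldown and 61.4, 71.6, 73.0 and 69.8 CPM in the scrambled pulldown. Its inputs lay at 93.0, 90.0, 90.8 and 105 CPM with miR-29b and at 92.4, 94.7, 91.7 and 131 CPM with the scrambled mimic. Both pulldowns were below both inputs. The mimic-specific log2 change was -0.25 (95% interval -0.75 to 0.26, edgeR adjusted p = 0.492). Within a library, the CPM of Ccnd2 divided by that of Ccnd1, which is not corrected for transcript length, was 22.2 to 66.1 in the miR-29b pulldown, 6.67 to 10.3 in the scrambled pulldown, 5.38 to 8.02 in the miR-29b input and 3.83 to 13.4 in the scrambled input. The ratio of Ccnd2 to Ccnd3 was likewise highest in the miR-29b pulldown, at 100.1 to 179 against 14.9 to 22.8 in the scrambled pulldown. Of the 3 D-type cyclins, Ccnd2 was the only one called higher in the 16 libraries.

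Rb1 (chr14:73192858-73325951, ENSMUSG00000022105) encodes the pocket protein that the G1 kinases phosphorylate. It had 40.9, 39.2, 36.6 and 40.9 CPM in the miR-29b pulldown and 5.32, 6.21, 4.61 and 4.65 CPM in the scrambled pulldown. Inputs held 4.20, 5.15, 4.18 and 11.0 CPM with miR-29b and 4.51, 5.84, 4.85 and 3.27 CPM with the scrambled mimic. The miR-29b pulldown libraries varied least, relative to their mean, of the 8 genes and stood apart from all 12 others. Rb1 rose by 2.51 on the log2 scale (SE 0.39, 5.68-fold, edgeR adjusted p = 0.000221). Replicates 1 to 3 gave 3.04 and replicate 4 gave 1.39, where the miR-29b input was the highest of its group. No alternative tried ended the call.

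Cdk4 (chr10:127063535-127067288, ENSMUSG00000006728) is the main partner of the D-type cyclins in fibroblasts. The miR-29b pulldown held 295, 272, 277 and 240.0 CPM and the scrambled pulldown 198, 187, 178 and 157 CPM. The inputs held 414, 422, 405 and 369 CPM with miR-29b and 404, 410.4, 406 and 491 CPM with the scrambled mimic. Both pulldowns lay below both inputs, the scrambled one further. The mimic-specific log2 change of 0.68 (SE 0.19, 1.60-fold, edgeR adjusted p = 0.0159) is thus a smaller loss in the miR-29b pulldown. With upper-quartile scaling, which placed the median of all genes at -0.39, the change was 0.38 and did not pass (edgeR adjusted p = 0.171). Nor did it pass in replicates 1, 2 and 4 (0.68, edgeR adjusted p = 0.177) or in a set of 10 libraries (0.55, edgeR adjusted p = 0.378), which leaves out every replicate 3 and replicate 4 of the miR-29b input and of the scrambled pulldown.

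Cdk6 (chr5:3341004-3531008, ENSMUSG00000040274), the other partner of D-type cyclins, had 47.8, 87.7, 65.0 and 182 CPM in the miR-29b pulldown and 16.1, 28.2, 26.5 and 27.4 CPM in the scrambled pulldown. It had 7.50, 7.94, 7.35 and 49.1 CPM in the miR-29b input and 11.2, 11.4, 12.1 and 21.9 CPM in the scrambled input. Replicate 4 was the highest of its group in the miR-29b pulldown and in both inputs. The mimic-specific log2 change over 16 libraries was 1.60 (95% interval -0.12 to 3.33, edgeR adjusted p = 0.165). Without replicate 4 of the miR-29b input it was 2.94 (SE 0.55, edgeR adjusted p = 0.00061), among replicates 1 to 3 it was 2.11 (SE 0.32, edgeR adjusted p = 0.000204; 24.4% of all genes were called higher there), and in the set of 10 libraries it was 3.19 (edgeR adjusted p = 0.0236; 9.76% called higher). The 2.94 and 3.19 come from sets that keep the intact replicate 4 in the miR-29b pulldown but not in the miR-29b input. Procedure and mimic-specific change cannot be told apart there. All 4 same-numbered sets gave a positive value, 2.14, 2.15, 2.01 and 1.57, each below 2.94. With the replicate number as a block in the model it was 1.78 (SE 0.48) and passed (edgeR adjusted p = 0.0104). Dropping replicate 4 of the miR-29b pulldown, which keeps it in the miR-29b input, gave 1.09 (edgeR adjusted p = 0.32).

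Cdk2 (chr10:128697938-128705051, ENSMUSG00000025358), the partner of cyclin E, had 94.4, 151, 122 and 407 CPM in the miR-29b pulldown and 18.1, 36.7, 32.6 and 34.7 CPM in the scrambled pulldown. Input levels were 24.2, 22.8, 23.8 and 101 CPM with miR-29b and 30.1, 26.8, 26.5 and 32.4 CPM with the scrambled mimic. Replicate 4 was far above the other libraries in both miR-29b groups. Over 16 libraries Cdk2 rose by 2.09 on the log2 scale (SE 0.71, 4.25-fold, edgeR adjusted p = 0.0406). That call was lost in 14 of 26 alternatives, with an adjusted p of up to 0.165. They include leaving out any 1 library other than replicates 1, 2 and 3 of the miR-29b pulldown and replicate 4 of the miR-29b input. Without the last of these the change was 3.04 (SE 0.55, edgeR adjusted p = 0.000497). Dropping replicate 4 of the miR-29b pulldown instead gave 1.43 (edgeR adjusted p = 0.0952). Both of these sets keep the intact replicate 4 in only 1 of the miR-29b groups, so procedure and change cannot be told apart there. Same-numbered sets gave 2.69, 2.26, 2.07 and 1.91.

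Ccne1 (chr7:38097984-38107490, ENSMUSG00000002068) encodes cyclin E1, which E2F induces late in G1. It had 26.4, 78.6, 53.9 and 52.1 CPM in the miR-29b pulldown and 18.7, 26.0, 25.9 and 25.0 CPM in the scrambled pulldown. In the inputs it had 25.2, 23.6, 24.2 and 34.2 CPM with miR-29b and 38.6, 35.9, 35.0 and 44.3 CPM with the scrambled mimic. The pulldowns did not overlap, although replicate 1 with miR-29b was only just above the scrambled libraries. Its mimic-specific log2 change was 1.66 (SE 0.35, 3.15-fold, edgeR adjusted p = 0.00236). Among replicates 1 to 3 it was 1.77 and in replicate 4 it was 1.43. In the set of 10 libraries it was 1.92 and narrowly missed the threshold (edgeR adjusted p = 0.0519).

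**Figure D2:**
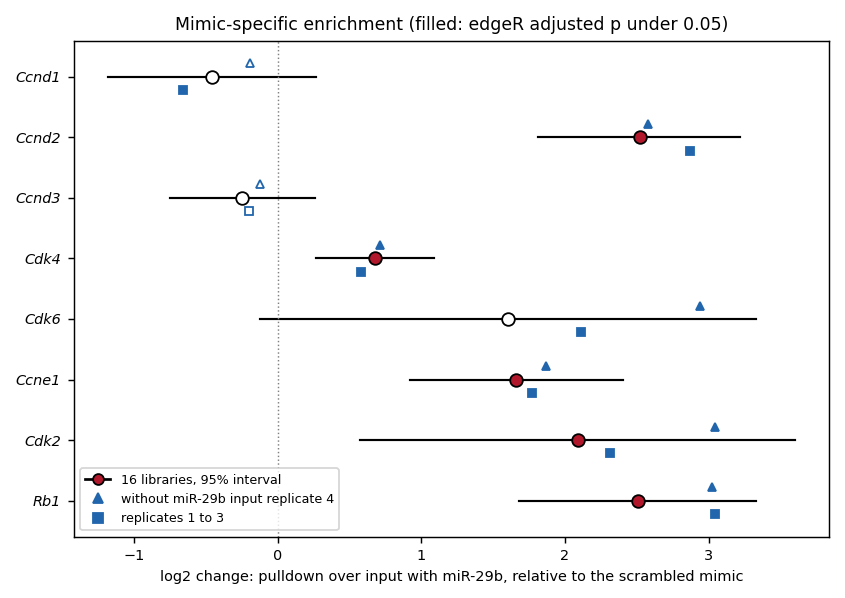
Mimic-specific log2 change per gene in 16 libraries (circles, with 95% intervals), without replicate 4 of the miR-29b input (triangles) and in replicates 1 to 3 (squares), filled where the edgeR adjusted p was under 0.05. Cdk6 is open at 1.60 over all libraries and filled at 2.94 and 2.11 in the other sets. The triangles keep the intact replicate 4 in the miR-29b pulldown but not in the miR-29b input.

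Setting the pulldowns directly against each other leaves out the inputs. Here 6 of 8 genes were higher and 0 lower, against 24.5% and 20.9% of all genes tested. The log2 changes with miR-29b over the scrambled mimic were 2.92 for Rb1 (SE 0.29, edgeR adjusted p = 8.57e-07), 2.66 for Cdk2 (SE 0.53, edgeR adjusted p = 0.000691) and 2.64 for Ccnd2 (SE 0.24, edgeR adjusted p = 4.71e-07). Cdk6 rose by 1.96 (SE 0.59, edgeR adjusted p = 0.0127); dropping replicate 4 of the miR-29b pulldown left it at 1.44 and just outside the threshold (edgeR adjusted p = 0.0505). Ccne1 rose by 1.14 (SE 0.25, edgeR adjusted p = 0.00141) and Cdk4 by 0.59 (SE 0.14, edgeR adjusted p = 0.0022). For Cdk4 upper-quartile scaling ended the call (0.29, edgeR adjusted p = 0.113), as did the 10 libraries (0.48, edgeR adjusted p = 0.188) and replicates 1, 2 and 4 (0.57, edgeR adjusted p = 0.0571). In each of these 6 genes all 4 miR-29b libraries were above all 4 scrambled ones, which 22.8% of genes tested also showed. Ccnd1 was at 0.08 (95% interval -0.43 to 0.59) and Ccnd3 at -0.36 (95% interval -0.72 to 0.00), and neither passed. Ccnd3 was lower past the threshold with upper-quartile scaling (-0.66, edgeR adjusted p = 0.00306) and when replicate 2 of the miR-29b pulldown was left out (-0.51, edgeR adjusted p = 0.0192).

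The pulldown-over-input changes of each mimic share their inputs and pulldowns with the comparisons above and are given side by side. With miR-29b, 5 genes were higher in the pulldown than in the input (28.4% of all genes) and 2 were lower (23.2%). Log2 changes with miR-29b were 2.68 for Rb1, 2.64 for Ccnd2, 2.40 for Cdk6, 2.17 for Cdk2 and 0.98 for Ccne1, all higher, and -0.82 for Ccnd3 and -0.57 for Cdk4, both lower (edgeR adjusted p = 1.05e-06 to 0.00362). Ccnd1 was at -0.03. The calls of Ccnd3 and Cdk4 were lost with the authors' totals and in the 10 libraries, and those of Cdk4 and Ccne1 in replicates 1, 2 and 4; Ccne1 also lost it in the 10 libraries. With the scrambled mimic 0 genes were higher (18.5% of all genes) and 3 were lower (17.4%). Those were Cdk4 at -1.25 (edgeR adjusted p = 1.34e-05), Ccne1 at -0.68 (edgeR adjusted p = 0.041) and Ccnd3 at -0.57 (edgeR adjusted p = 0.0157). With the scrambled mimic 3 genes had an unadjusted p under 0.05, and DESeq2 called 3, 0 of them higher. The Ccne1 call with the scrambled mimic was lost in 14 of 27 alternatives, with an adjusted p of up to 0.221, among them the removal of any 1 library of either scrambled group or of replicate 3 of the miR-29b pulldown. That of Ccnd3 was lost in 4 of 27 alternatives, with an edgeR adjusted p of up to 0.179. It was lost with the authors' totals, in replicates 1, 2 and 4, and in the 10 libraries. It was also lost without replicate 4 of the scrambled input (-0.43, edgeR adjusted p = 0.0545). Without the same library Ccnd1 was higher (0.76, edgeR adjusted p = 0.0094). Over 16 libraries Ccnd1 was at 0.43 and Cdk6 at 0.80 with the scrambled mimic (edgeR adjusted p = 0.181 and 0.296). Both were higher past the threshold among replicates 1 to 3 (0.76, edgeR adjusted p = 0.000591, and 1.06, edgeR adjusted p = 0.00189) and with the replicate number as a block (0.49, edgeR adjusted p = 0.0362, and 0.89, edgeR adjusted p = 0.0476). Cdk6 also passed when only the scrambled groups were fitted.

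The inputs ask whether the mimic changed the level of these transcripts in the cells. In bulk RNA, a change in the number of cells that hold a transcript and a change in its amount per cell cannot be told apart. None of the 8 genes passed (0 of 8; edgeR), 1 had an unadjusted p under 0.05, and DESeq2 also called 0. Of all genes tested 0.0542% passed, all higher in the miR-29b input. Ccnd1 was at 0.54 (95% interval 0.02 to 1.05, edgeR adjusted p = 1), and its 3 lysed miR-29b inputs (144 to 149 CPM) lay above the 3 lysed scrambled inputs (88.3 to 93.0 CPM). Among replicates 1 to 3 Ccnd1 was the 1 gene of the 8 that passed, with a log2 change of 0.68 (0.639% of all genes were called higher there), and in replicate 4 it was 0.27. Ccne1 was at -0.52 (95% interval -1.04 to 0.00, edgeR adjusted p = 1), with all 4 miR-29b inputs below all 4 scrambled inputs, as in 2.18% of genes tested. The remaining log2 changes in the inputs were 0.57 for Cdk2, 0.42 for Rb1, 0.35 for Cdk6, 0.13 for Ccnd2, -0.09 for Cdk4 and -0.11 for Ccnd3. Those of Cdk2, Rb1 and Cdk6 turned to -0.25, -0.19 and -0.62 among replicates 1 to 3. Replicate 4 of the miR-29b input, at 101, 11.0 and 49.1 CPM, was the highest of its group for all 3.

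For each gene called higher in the mimic-specific comparison, the genes most like it in log2 CPM over the 16 libraries were taken by Pearson's r. This is a description over libraries that share their groups. For Ccnd2 they were Nop2 and Ing4 (both r = 0.994), which lie on the same chromosome at chr6:125131883-125144753 and chr6:125039848-125049265. For Rb1 they were Col5a2, a fibrillar collagen gene, and Dbt (both r = 0.989). Cdk2 was most like Mob1b (0.985) and Gid8 (0.981), Cdk4 like Cacybp (0.983) and Ntan1 (0.973), and Ccne1 like Ccdc50 (0.927) and Dcun1d3 (0.917). Among the 8 themselves, Ccnd2 and Rb1 had r = 0.95, Cdk2 and Cdk6 0.93, and Cdk2 and Rb1 0.90. Cdk4 had r of -0.19, -0.20 and -0.21 with Ccnd2, Cdk2 and Rb1.

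The authors' deposited table gives a score per gene and replicate, named PE in its headers, with no formula in the sources used here. Its mean over the lysed replicates in the authors' deposited table was 8.57 for Rb1, 8.10 for Ccnd2, 4.64 for Cdk2 and 3.24 for Cdk6. In the authors' deposited table it was 1.13 for Ccne1, 0.40 for Ccnd1, -0.48 for Ccnd3 and -0.50 for Cdk4. These put Rb1 at rank 398, Ccnd2 at 428, Cdk2 at 797 and Cdk6 at 1163 of 13534 genes in the authors' deposited table. Cdk4, at rank 10927, is thus low in the authors' deposited table. Here it was also lower in the miR-29b pulldown than in its input (-0.57). Its mimic-specific change of 0.68 reflects a smaller loss than with the scrambled mimic (-1.25). The authors' deposited table marks Ccnd2 and Rb1 as significant in all lysed replicates, as it does 5.05% of genes. It marks Rb1, Cdk2 and Cdk6 as significant in the intact replicate, as the authors' deposited table does for 7.23% of genes. Only Rb1 is marked there as a positive hit (4.19% of genes in the authors' deposited table). Ccnd2 is the only member of the 8 that the authors' deposited table marks as having any site (3.76% of genes), and the header does not say how sites were found.

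Other parts of the G1 machinery were read from lists of pathway genes, which the plot of G1 control genes shows. Most of their members did not pass in the mimic-specific comparison, where 17% of all genes were higher, 9.21% were lower and the median of all genes was -0.10. Among CDK inhibitors, 1 of 6 tested was higher and 1 lower, with a median log2 change of -0.24. Cdkn1a, which encodes p21, rose by 2.57 (SE 0.42, 5.96-fold, edgeR adjusted p = 0.000335). It had 243, 332, 292 and 469 CPM in the miR-29b pulldown and 31.0, 26.8, 28.7 and 30.4 CPM in the scrambled pulldown. Its inputs had 56.5, 65.2, 60.3 and 160.0 CPM with miR-29b and 41.9, 44.8, 39.8 and 51.8 CPM with the scrambled mimic, so that both miR-29b groups were above their scrambled counterparts. Cdkn1b, which encodes p27, fell by 0.97 (edgeR adjusted p = 0.021) relative to the scrambled mimic. It was higher in the pulldown than in the input with both mimics, by 0.95 with miR-29b and by 1.92 with the scrambled mimic (edgeR adjusted p = 0.00112 and 1.28e-05).

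Among pocket proteins, E2F and DP genes, 1 of 12 was higher and 1 lower (median -0.15). E2f5, which encodes a repressor-type E2F, rose by 0.91 (edgeR adjusted p = 0.00148), with pulldown-over-input changes of 0.10 with miR-29b and -0.81 with the scrambled mimic. E2f1, an activator of S phase genes, fell by 1.28 (edgeR adjusted p = 0.0298). Among genes of CDK activation, 1 of 8 was higher and 1 lower (median 0.09). Cdk7, the catalytic part of the CDK-activating kinase, rose by 1.15 (edgeR adjusted p = 0.0201), and Cdc37, a chaperone factor for kinases such as Cdk4, fell by 0.88 (edgeR adjusted p = 0.0339). For the turnover of G1 cyclins and inhibitors, 2 of 10 were higher and 1 lower (median 0.12). Fbxw7, whose product marks cyclin E for degradation, rose by 2.97 (SE 0.77, 7.82-fold, edgeR adjusted p = 0.00938). Its levels were 123, 246, 184 and 190.2 CPM in the miR-29b pulldown and 13.0, 11.1, 10.8 and 10.7 CPM in the scrambled pulldown. Gsk3b, the kinase that marks cyclin D1 for export and breakdown, rose by 2.41 (SE 0.60, edgeR adjusted p = 0.00723). Ambra1, whose product directs the degradation of D-type cyclins, fell by 1.06 (edgeR adjusted p = 0.00245), with pulldown-over-input changes of 0.05 with miR-29b and 1.11 with the scrambled mimic.

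Of 12 E2F-driven S phase genes, 0 passed in the mimic-specific comparison with edgeR, 4 had an unadjusted p under 0.05, and DESeq2 called 2. Their median of -0.10 equalled that of all genes. Of 6 mitogen-responsive factors, 2 were higher and 1 lower (median 0.71). Fos rose by 1.71 (edgeR adjusted p = 0.00812) and Fosl1 by 1.47 (edgeR adjusted p = 0.00683), while Jun fell by 1.02 (edgeR adjusted p = 0.00623). Pulldown over input, Fos was at 2.36 with miR-29b and 0.66 with the scrambled mimic. Fosl1 was at 0.10 with miR-29b, which did not pass, and at -1.38 with the scrambled mimic, which did. Jun was likewise at 0.13 with miR-29b and higher, at 1.15, with the scrambled mimic. All 3 encode AP-1 subunits, a factor known to drive cyclin D1 transcription. Fos was scarce, at 4.42 to 9.79 CPM in the miR-29b pulldown and 1.26 to 2.45 CPM in the scrambled pulldown. The calls of E2f1, Cdc37 and Cdkn1b were lost in 14, 12 and 8 of 26 alternatives, with an adjusted p of up to 0.405, 0.281 and 0.328. Cdkn1b lost it without replicate 2 or 4 of the miR-29b input, replicate 1 or 3 of the scrambled input, or replicate 2 of the scrambled pulldown. Cdc37 lost it without replicate 1, 2 or 3 of either input, replicate 2 of the miR-29b pulldown, or replicate 3 or 4 of the scrambled pulldown. E2f1 lost it without replicate 1, 2 or 4 of the miR-29b input, 1, 2 or 3 of the scrambled input, 1 or 4 of the miR-29b pulldown, or 2, 3 or 4 of the scrambled pulldown. The calls of Cdk7, Ambra1 and Jun were lost in 3 of 26 alternatives (edgeR adjusted p of up to 0.364, 0.186 and 0.256), those of Fos and Fosl1 in 2 (up to 0.246 and 0.0786) and those of E2f5, Fbxw7 and Gsk3b in 1 (up to 0.0668, 0.101 and 0.0818). These were replicates 1, 2 and 4 or the 10 libraries, and also upper-quartile scaling for Cdk7 and the authors' totals for Ambra1 and Jun. The call of Cdkn1a held in all 26.

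**Figure D3:**
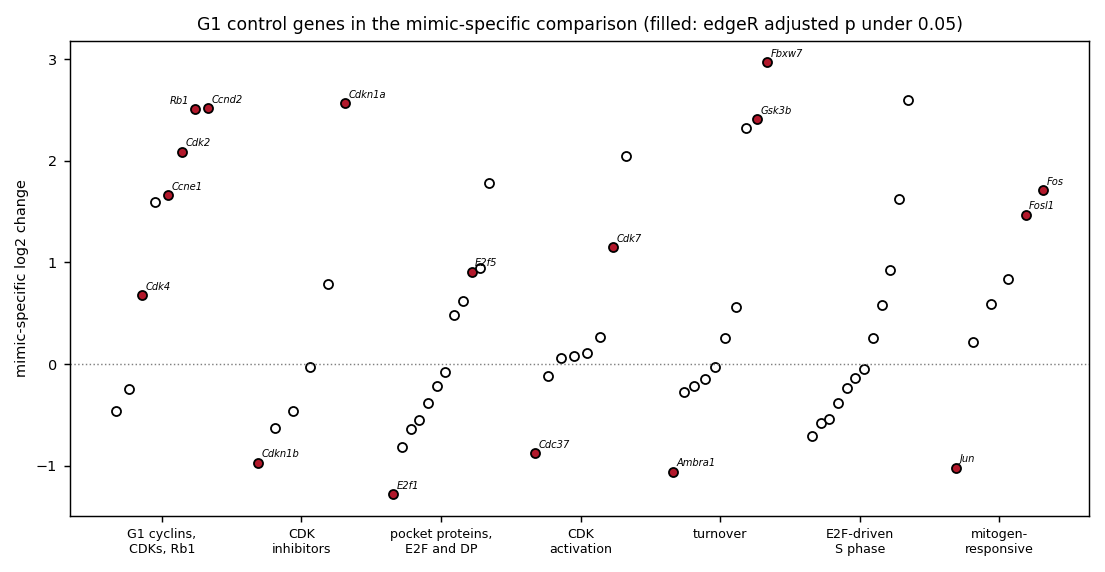
Mimic-specific log2 change of every tested gene of the 7 groups, ordered within each group, with filled and named points where the edgeR adjusted p was under 0.05. The 8 G1 genes hold 5 filled points, all above 0, and the 12 S phase genes hold 0.

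Between the pulldowns the same lists held more calls, against 24.5% of all genes higher and 20.9% lower. The counts of higher and lower genes were 1 and 1 of 6 CDK inhibitors, 2 and 4 of 12 pocket proteins, E2F and DP genes, 2 and 1 of 8 activation genes, 3 and 2 of 10 turnover genes, 2 and 5 of 12 S phase genes, and 3 and 1 of 6 mitogen-responsive factors. Ccne2, which encodes cyclin E2, rose by 4.44 (SE 1.05, edgeR adjusted p = 0.00254). It had 66.3, 245, 140.4 and 381 CPM in the miR-29b pulldown and 8.73, 10.6, 9.89 and 8.94 CPM in the scrambled pulldown. In the miR-29b input it had 1.78, 2.94, 2.54 and 81.3 CPM, so that replicate 4 stood apart there too, and in the scrambled input 3.67, 4.84, 3.31 and 5.21 CPM. The replication factor gene Cdc6 rose by 1.65 (edgeR adjusted p = 0.0065), and the helicase genes Mcm2 and Mcm6 fell by 0.75 (edgeR adjusted p = 0.00192) and 0.47 (edgeR adjusted p = 0.00188). With the authors' totals Mcm2 was at -0.44 (edgeR adjusted p = 0.174) and Mcm6 at -0.15 (edgeR adjusted p = 0.537), and neither passed there or in the 10 libraries. Mcm2 also did not pass in replicates 1, 2 and 4. With miR-29b over scrambled input, Mcm2 was at -0.21 and Mcm6 at -0.42, and neither passed. Their mimic-specific changes, -0.54 for Mcm2 and -0.05 for Mcm6, did not pass either. Between the pulldowns Rbl1, which encodes the pocket protein p107, fell by 1.41 (edgeR adjusted p = 0.000195). In the inputs 0 genes of any of the 6 lists passed with edgeR. At an unadjusted p under 0.05 there were 1, 1, 1, 0, 3 and 0 genes in the 6 lists, in the same order, and DESeq2 called 1 S phase gene and 0 in the other lists.

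The fraction libraries had 1 library for each combination, so their log2 ratios carry no test. The intervals given are 95% intervals for counting error only. In the cytoplasmic fraction, Rb1 and Cdk2 were again well above the scrambled mimic, and Ccnd2 was not. The mimic-specific log2 ratio of Cdk2 there was 2.41 (2.09 to 2.73) and that of Rb1 2.47 (1.66 to 3.27), and 19.3% of all genes were at least 2-fold higher. Cdk2 had 125 CPM in the miR-29b pulldown, 27.8 CPM in the scrambled pulldown, 40.9 CPM in the miR-29b input and 48.8 CPM in the scrambled input. Rb1 had 20.4, 3.87, 11.0 and 12.6 CPM in the same order, and its scrambled pulldown value rests on 15 counts. For Ccnd2 the cytoplasmic ratio was -0.71 (-0.76 to -0.65). Its levels were 1095 CPM in the miR-29b pulldown, 1859 CPM in the scrambled pulldown, 1112 CPM in the miR-29b input and 1158 CPM in the scrambled input, so that the scrambled pulldown was the highest of the 4. Ccnd1 and Ccnd3 were lower as well, at -1.10 (-1.25 to -0.95) and -1.13 (-1.39 to -0.88), as were 16.5% of all genes by at least 2-fold. Cdk6 was at -0.62 (-1.13 to -0.11), Cdk4 at 0.09 (-0.02 to 0.21) and Ccne1 at 0.06 (-0.36 to 0.47). Without TMM factors, which adjust the library sizes for composition, Cdk4 and Ccne1 turned to -0.04 and -0.07, and the other 6 kept their direction. Listed counts made up 48.7% of the authors' total in the cytoplasmic scrambled pulldown and 78.4% to 78.9% in the other cytoplasmic libraries. The part of this in the ratios was not tested.

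In the nuclear fraction the ratios were smaller, and 1.83% of all genes were at least 2-fold higher. Ccnd2 had the highest of the 8, at 0.71 (0.64 to 0.79), with 742 CPM in the miR-29b pulldown, 531 CPM in the scrambled pulldown, 455 CPM in the miR-29b input and 534 CPM in the scrambled input. Ccne1 was at 0.53 (0.09 to 0.96), Cdk2 at 0.48 (0.29 to 0.66), Cdk4 at 0.43 (0.30 to 0.55) and Ccnd3 at 0.29 (-0.05 to 0.63). The intervals of Cdk6 (0.19), Rb1 (-0.03) and Ccnd1 (-0.06) included 0. None of the 8 reached 2-fold in the nucleus. The authors' deposited table marks none of the 8 (0) as significant in the cytoplasm, where it marks 2.04% of all genes. Its cytoplasmic score was 3.20 for Cdk2, 1.48 for Rb1 and -0.35 for Ccnd2.

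The inputs of the fractions also show how large a share of each library these transcripts made up. Ccnd1, Ccnd2, Ccnd3, Cdk4 and Ccne1 had more CPM in the cytoplasmic inputs and Cdk6, Cdk2 and Rb1 in the nuclear inputs, with both mimics. Each library was made from 5 ng of RNA, so the ratios do not give amounts per compartment of a cell. Listed counts were 37.4% (miR-29b) and 43.4% (scrambled) of the authors' total in the nuclear inputs. In the cytoplasmic inputs they were 78.9% and 78.7%. Log2 nuclear over cytoplasmic ratios in the miR-29b input were -1.17, -1.29, -1.32, -1.30 and -1.08 for the first 5 genes and 0.68, 1.14 and 0.65 for Cdk6, Cdk2 and Rb1. In the scrambled input they were -0.87, -1.12, -1.31, -1.13 and -0.77, and 0.46, 0.69 and 0.39. Without TMM factors the 8 kept their direction in both inputs, but the ratios moved in both. In the miR-29b input they were between -0.61 and -0.38 for the first 5 genes and 1.38, 1.85 and 1.34 for Cdk6, Cdk2 and Rb1. In the scrambled input they were between -0.74 and -0.21 for the first 5 genes and 1.02, 1.26 and 0.94 for Cdk6, Cdk2 and Rb1. In the miR-29b input 25.1% of all genes were at least 2-fold higher in the nucleus and 25.9% at least 2-fold lower, and in the scrambled input 23.8% and 24%. The nuclear RNA Malat1 was at 7.58 in the miR-29b input. Malat1 was also 4.47 higher in the cytoplasmic pulldown than in its input with miR-29b, and 5.18 higher with the scrambled mimic. For Ccnd1, the miR-29b input was above the scrambled input in both fractions, by 0.85 (0.78 to 0.92) in the cytoplasm and 0.55 (0.45 to 0.65) in the nucleus. In cytoplasmic inputs Ccnd1 had 302 CPM with miR-29b and 167 CPM with the scrambled mimic, and in nuclear inputs 134 and 91.3 CPM.

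**Figure D4:**
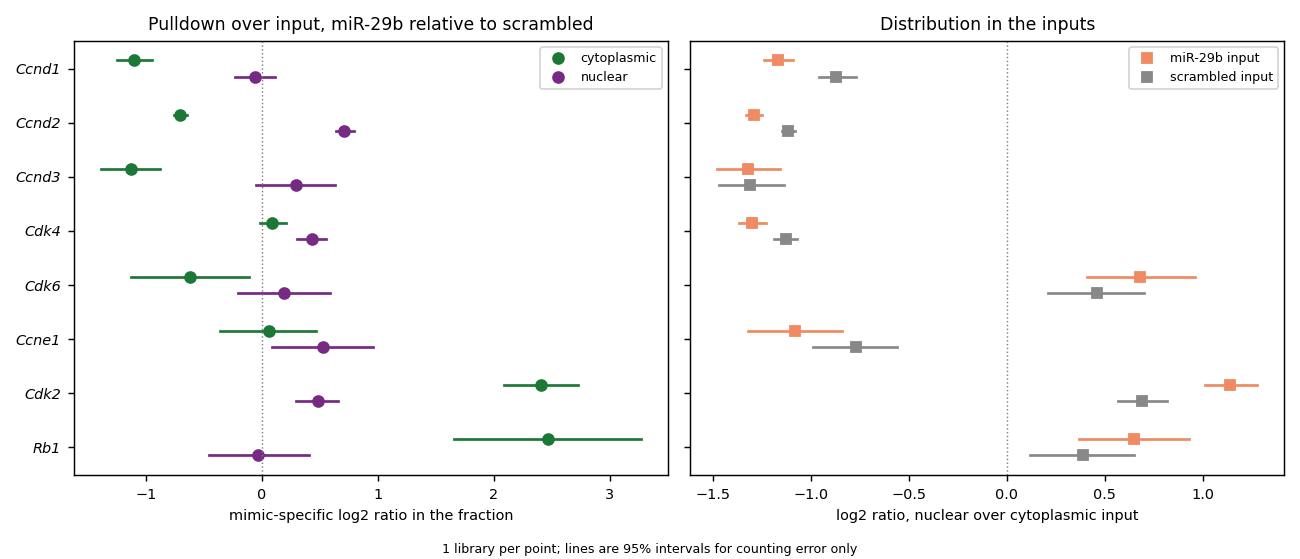
Left, mimic-specific log2 ratios in the cytoplasmic and nuclear fractions, and right, nuclear over cytoplasmic log2 ratios in the 2 inputs, with 1 library per group and lines for 95% counting intervals. Cdk2 and Rb1 lie at 2.41 and 2.47 in the cytoplasm and at 0.48 and -0.03 in the nucleus, while Ccnd2 lies at -0.71 and 0.71.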

How the data were processed

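RNA of 24 NIH3T3 libraries was sequenced, 16 from whole cells and 8 from fractions. Libraries were made from 5 ng of RNA (6 ng in the case of the fourth miR-29b input) with random hexamer and oligo-dT primers, per the labels. STAR 2.3.0 and mm10 are named in the submitters' processing notes; no counting tool, annotation or strand setting is named there or in the labels and headers. The authors deposited whole-number counts per gene. Their deposited CPM equals the count plus 1 over a library total larger than the listed counts, and their PE score has no stated formula. Fraction values were read from 1 table, since the nuclear and cytoplasmic tables were identical.

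Repeat lines (518 of 14052, all with identical counts) were removed. The test was that of edgeR 4.0.16 (R 4.3.3; filterByExpr, TMM, quasi-likelihood, 1 model of 4 group means), two-sided, with Benjamini-Hochberg adjustment over 12915 genes in each of 5 comparisons and a threshold of 0.05; 619 genes fell under the filter. CPM here is on TMM-scaled library sizes. Fraction ratios are log2 with a prior count of 5 after TMM. Whole-cell libraries held 7409157 to 55153996 listed counts and fraction libraries 5320421 to 20142591, so that low genes, such as Rb1 in the cytoplasmic scrambled pulldown, rest on few counts. No spread between libraries was measured in the fractions.

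The genes, lists and tests were chosen with earlier results of these data known. All 8 genes are named; of each pathway list up to 3 called genes with the smallest p are named. Of the pathway genes Cdkn1c was not listed. Sequences and coordinates come from RefSeq tables of GRCm38.p6. Same-numbered libraries deviated together between inputs (r = 0.51 to 0.72) and between miR-29b pulldown and input (0.38 to 0.70), with r over 0.1 in 4 of 4 pairs each, and less regularly between pulldowns (-0.07 to 0.37, over 0.1 in 3 of 4 pairs) and with the scrambled mimic (-0.05 to 0.31, 2 of 4). Replicate 4 differs in procedure and would give such a correlation under any numbering of replicates 1 to 3. The own number gave the highest r for 4 of 4 libraries between inputs and between miR-29b pulldown and input. It did so for 3 of 4 between pulldowns and for 2 of 4 with the scrambled mimic. Alternatives were RLE and upper-quartile factors, the authors' totals, DESeq2 1.42.0, other filters, a replicate block, only the groups compared, subsets of replicates and leaving out each library. On simulated counts with 200 genes changed 4-fold, 72% were recovered in the mimic-specific comparison and 99% between pulldowns, over 12889 genes. Unchanged genes called there numbered 11 and 9. The simulation gave all genes the same dispersion, with no difference between lysed and intact replicates and no pairing. Its rates therefore need not hold for these libraries.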

Additional observations from a re-analysis of the deposited data

Results flagged for a closer look

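Of 32 sets of 4 libraries (8 genes in 4 groups), 15 had a library far from the other 3 by Dixon's test at the 95% level. Chance gives this in about 1 of 20 independent sets, but these sets share 16 libraries. The share over all genes was not computed, so whether the count is particular to these genes is not known. Over genes in general, replicate 4 deviated from any mixture by at least 91.8 (miR-29b pulldown), 116 (miR-29b input) and 41.8 (scrambled input) times the counting variance. Replicate 4 of the miR-29b input was high for Ccnd1 (225 CPM), Cdk6 (49.1 CPM), Ccne1 (34.2 CPM), Cdk2 (101 CPM) and Rb1 (11.0 CPM). Replicate 4 of the scrambled input was high for Ccnd1 (187 CPM), Ccnd3 (131 CPM), Cdk4 (491 CPM) and Cdk6 (21.9 CPM) and low for Ccnd2 (717 CPM). Replicate 4 of the miR-29b pulldown was low for Ccnd2 (4198 CPM). Replicate 1 of the scrambled pulldown, which had the fewest counts, was high for Ccnd2 (1402 CPM) and low for Ccnd1 (136 CPM), Cdk6 (16.1 CPM) and Ccne1 (18.7 CPM). The mimic-specific log2 ratio of Ccnd2 was -0.71 in the cytoplasmic and 0.71 in the nuclear fraction; with 1 library per group that difference was not tested, and the whole-cell value was 2.52.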

How the results depend on the processing

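Of the 8 genes, 5 were called in the mimic-specific comparison; upper-quartile scaling and replicates 1, 2 and 4 each called 3. For miR-29b pulldown over input 7 were called, and 4 in the set of 10 libraries. For scrambled pulldown over input 3 were called; the authors' totals, replicates 1, 2 and 4, and the 10 libraries each called 1, and the replicate block called 5, where Ccnd1 (0.49) and Cdk6 (0.89) were also higher. The inputs had 0, and 1 among replicates 1 to 3. Leaving out 1 library called 4 to 6 in the mimic-specific comparison, 5 to 7 between pulldowns, 7 for miR-29b pulldown over input, 2 to 3 for scrambled pulldown over input and 0 between inputs. The replicate block also called Cdk6 in the mimic-specific comparison (1.78, edgeR adjusted p = 0.0104) and changed no other call of the 8 genes there, between pulldowns or between inputs. Of the 8 genes, directions turned only for changes that had not passed. With the authors' totals these were Ccnd3 mimic-specific (0.05) and Ccnd1 in miR-29b pulldown over input (0.30), and with upper-quartile scaling Ccnd1 between pulldowns (-0.22). Among replicates 1 to 3 the inputs turned for Ccnd2 (-0.05), Cdk4 (0.01), Cdk6 (-0.62), Cdk2 (-0.25) and Rb1 (-0.19), and Ccnd1 in miR-29b pulldown over input (0.11). In the 10 libraries the inputs turned for Cdk6 (-0.95) and Cdk2 (-0.34), Ccnd1 in miR-29b pulldown over input (0.20) and Cdk2 in scrambled pulldown over input (-0.09), and under the replicate block the input of Cdk6 (-0.05). With 1 library left out, input changes spanned -0.02 to 0.18 for Ccnd2, -0.21 to 0.04 for Ccnd3, -0.95 to 0.69 for Cdk6, -0.33 to 0.79 for Cdk2 and -0.06 to 0.57 for Rb1. Ccnd1 in miR-29b pulldown over input spanned -0.11 to 0.19, and in scrambled pulldown over input Ccnd2 spanned -0.03 to 0.16 and Cdk2 -0.02 to 0.22. Over all genes, 2192 were higher and 1190 lower in the mimic-specific comparison, against 1662 and 2400 with upper-quartile scaling (median of all genes -0.39), 2466 and 283 with the authors' totals (0.21), 3127 and 2457 among replicates 1 to 3, 1004 and 233 in replicates 1, 2 and 4, and 1273 and 180 in the 10 libraries. For scrambled pulldown over input, 2392 of all genes were higher and 2246 lower. These became 1939 and 1946 with the authors' totals and 1096 and 994 in replicates 1, 2 and 4. They were 709 and 442 in the 10 libraries and 3070 and 2716 under the block. For miR-29b pulldown over input 3672 were higher and 2991 lower, against 2679 and 1877 in the 10 libraries. Between inputs 7 genes were called, 45 with DESeq2 (32 higher, 13 lower), 11 under the block and 177 among replicates 1 to 3. The cause was not tested. The fractions had 1 library per group and no test.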
